A study of Arabidopsis thaliana with 6 samples.

Results

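The class III homeodomain-leucine zipper (HD-ZIP III) family of Arabidopsis thaliana comprises PHABULOSA (PHB, AT2G34710), PHAVOLUTA (PHV, AT1G30490), REVOLUTA (REV, AT5G60690), CORONA (CNA, also ATHB15, AT1G52150) and ATHB8 (AT4G32880). Its members were taken by gene identifier from the authors' comparison of the root apex, and all 5 were found among the 33233 gene entries. RNA came from roots of wild-type Col-0 seedlings aged 8 days, grown on plates in constant light at 19 °C and fixed before dissection. Zone I was the apical 0.5 mm, with root cap and dividing cells, and zone II was a section of 1.5 mm with elongating and hair-bearing cells. Each zone had 3 libraries, whole sections of mixed cell types, and whether seedlings were pooled is not given in the sources used here. The deposited comparison has 1 value per gene for each of the conditions named control and experiment. No sample label uses either name, so neither is called a zone here.

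HD-ZIP III proteins are transcription factors that join a DNA-binding homeodomain and leucine zipper to a START domain. In the root they act in the stele, where they promote procambium and xylem identity, and in Arabidopsis a high dose favours metaxylem over protoxylem. The microRNAs miR165 and miR166, made in the endodermis under control of SHORT-ROOT and SCARECROW, move inwards and cleave HD-ZIP III mRNAs, so that protein dose falls towards the stele periphery. Little zipper (ZPR) proteins bind HD-ZIP III proteins into inactive dimers, and KANADI factors oppose them in polarity and vascular patterning.

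The microRNAs and the sites they match are shown because they define the shared regulation of the family. All sequences here are from RefSeq on TAIR10.1, written 5′ to 3′ in DNA letters, and T stands for U in RNA. In the microRNAs the capitals mark the seed, bases 2 to 8. In the sites they mark the 7 bases that lie opposite the seed.
miR165a-3p: tCGGACCAggcttcatccccc
miR166a-3p: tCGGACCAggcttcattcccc
PHB: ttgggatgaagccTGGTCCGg
PHV: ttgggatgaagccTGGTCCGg
REV: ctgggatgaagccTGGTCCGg
CNA: ctggaatgaagccTGGTCCGg
ATHB8: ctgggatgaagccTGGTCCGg

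The 2 miR165 loci gave 1 mature sequence and the 7 miR166 loci another. They share their seed and differ by C17T from miR165 to miR166, counted from the 5′ end. All 5 sites paired with the whole seed. The PHB and PHV sites were identical, those of REV and ATHB8 differed from them by T1C, and that of CNA differed by T1C and G5A, counted from the 5′ end of the site. Of the 21 positions, 4 in PHB, PHV, REV and ATHB8 and 3 in CNA lacked a Watson-Crick pair with miR166, and G:U pairs made up 2 of these 4 and 1 of these 3. Against miR165 the numbers were 3 for the first 4 genes and 4 for CNA. When the longest coding sequence of each of 27437 genes was searched on the sense strand for the 21-base complement of either microRNA, 5 genes (0.0182%) had a match with at most 3 non-Watson-Crick positions, and these were the 5 HD-ZIP III genes. With at most 4 such positions there were 12 genes (0.0437%), the same 5 among them. A match of letters is a description and not evidence of cleavage in these samples.

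Each site crosses an exon junction in the coding sequence, with an intron of 82 to 116 bases inside it in the genome. On TAIR10.1 the PHB site lies on the minus strand at chr2:14642530-14642539 and chr2:14642656-14642666. The PHV site lies on the minus strand at chr1:10799330-10799339 and chr1:10799435-10799445. The REV site, on the plus strand, lies at chr5:24398787-24398797 and chr5:24398889-24398898. For CNA the minus strand carries it at chr1:19412976-19412985 and chr1:19413075-19413085, and for ATHB8 at chr4:15866872-15866881 and chr4:15866964-15866974. The junction joins exons 4 and 5 in PHB, PHV, REV and CNA and exons 5 and 6 in ATHB8. The coding sequences are 2502 to 2559 bases long, in genes of 17 exons (PHB) or 18 exons (the others). PHB and PHV were the closest pair, with 84.4% identity over 2518 aligned bases and a longest exact shared run of 64 bases. CNA and ATHB8 followed with 74.2% identity and a longest run of 23 bases, and the other pairs had 68.2% to 71.0%. Whether reads were shared between PHB and PHV in the authors' counting was not tested.

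Transcripts of 4 of the 5 genes, PHV, REV, CNA and ATHB8, were higher in the experiment condition at the authors' threshold, a Cuffdiff q-value (p adjusted for multiple testing) under 0.01. None was lower, and PHB did not pass. Over all 18050 tested gene entries, 43.6% were called, 22.3% higher and 21.2% lower, by the same rule in the authors' deposited table. At a q under 0.05 the same 4 members were called, beside 55.8% of all entries, 27.8% higher and 28.0% lower. The family was chosen with results of these data known, and no test was made of the family as a set. Levels are given as FPKM (fragments per length of transcript and depth of library), the unit Cuffdiff reports for its conditions, although the files print no unit. The condition values carry no SD, since the tables hold none for single libraries, and depth and the spread between replicates are unknown. Nothing states that replicates came from separate cultures, so the p-values may measure technical spread.

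ATHB8, an early marker of procambium that is induced by auxin in leaf veins, had the largest fold of the family. In the authors' deposited table ATHB8 stood at 2.49 FPKM in the control condition and 11.8 FPKM in the experiment condition. Its log2 fold change of experiment over control was 2.24 in the authors' deposited table, a ratio of 4.74, with a Cuffdiff q of 0.000177. This put it at the 84.9th percentile of log2 among tested entries with a finite fold. Its entry spans chromosome 4 from 15863452 to 15868625 on TAIR10, in a protein-coding gene.

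CNA, the closest relative of ATHB8, had the largest rise in level. It went from 4.72 FPKM in the control to 17.7 FPKM in the experiment condition in the authors' deposited table, a difference of 13.0 FPKM. The log2 fold change of CNA was 1.91 with a Cuffdiff q of 0.000177 in the authors' deposited table. CNA thus moved from the 38.6th to the 67.0th percentile of levels among tested entries. The CNA entry spans chromosome 1 from 19409711 to 19414761 on TAIR10.

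PHV and PHB form the other closely related pair, and both act in adaxial and central identity in shoot organs. PHV had 2.54 FPKM in the control and 7.94 FPKM in the experiment condition, and its log2 fold change was 1.64 with a Cuffdiff q of 0.000177 in the authors' deposited table. PHB had 5.80 FPKM in the control and 6.20 FPKM in the experiment condition, with a log2 fold change of 0.10 and a Cuffdiff q of 0.755 in the authors' deposited table. PHV was therefore called and PHB was not. Their microRNA sites are identical, and the part of the microRNAs in either level was not tested. The difference between both folds was not tested, since the files give no error for a fold, and the q of PHB does not show that its level was the same in both conditions. The PHV entry spans chromosome 1 from 10796135 to 10801007 and the PHB entry chromosome 2 from 14639323 to 14644273 on TAIR10.

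REV, which in Arabidopsis shapes meristems and vascular bundles, had the lowest control level among the gene entries of the family. The authors' deposited table gave REV 2.24 FPKM in the control and 6.51 FPKM in the experiment condition, a log2 fold change of 1.54 with a Cuffdiff q of 0.00456. Its entry, on chromosome 5 from 24397023 to 24404948, runs 2753 bases past the annotated gene and shares that span with the entry of AT5G60700. AT5G60700 lies on the opposite strand, and the annotations of both genes share 67 bases. Its own entry went the other way in the authors' deposited table, from 12.2 to 3.14 FPKM (log2 -1.96, q = 0.00196), and it is named after its value was seen. The library protocol does not mark the strand, so reads of both genes cannot be told apart where they overlap. Without REV, 3 of 4 members were called higher.

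**Figure D1:**
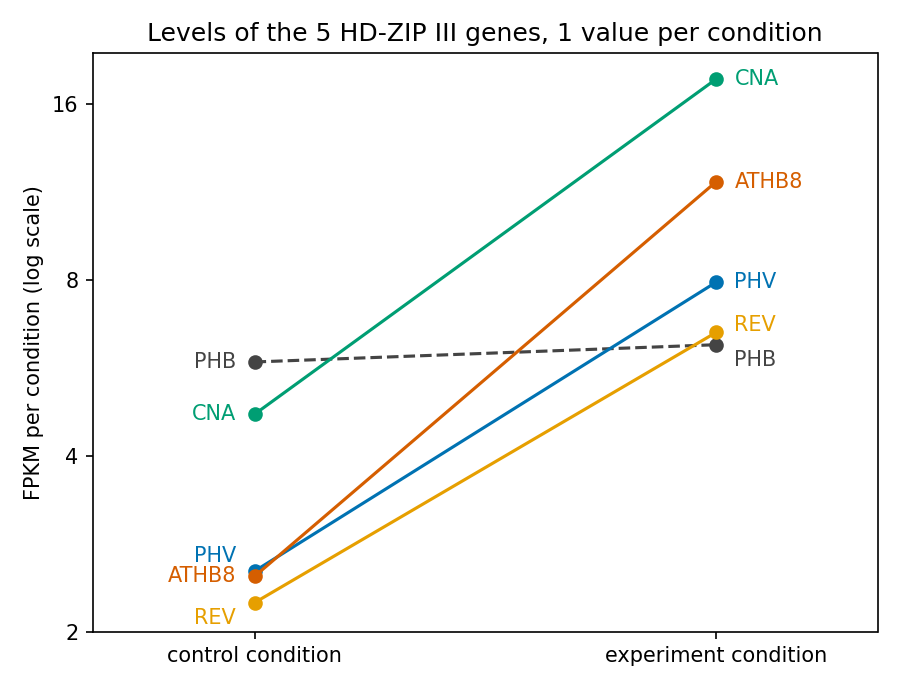
Levels of the 5 HD-ZIP III genes in FPKM (log scale), with 1 point per condition and a line joining the points of a gene, dashed for PHB. CNA, ATHB8, PHV and REV climb from between 2.24 and 4.72 FPKM to between 6.51 and 17.7 FPKM, whereas PHB stands at 5.80 and 6.20 FPKM.

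The order of the members differed between the conditions. In the control the levels of the gene entries ran from PHB through CNA, PHV and ATHB8 to REV, and PHV, ATHB8 and REV lay between 2.24 and 2.54 FPKM in the authors' deposited table. In the experiment condition CNA led, followed by ATHB8, PHV, REV and PHB. REV (6.51 FPKM) and PHB (6.20 FPKM) were the closest neighbours there in the authors' deposited table, and which neighbours differ beyond their spread is unknown. The summed level of the family was 17.8 FPKM in the control and 50.1 FPKM in the experiment condition, a ratio of 2.82, and 3.66 without PHB. PHB made up 32.6% of the control sum and 12.4% of the experiment sum, while CNA went from 26.5% to 35.3% and ATHB8 from 14.0% to 23.5%. PHV (14.3% and 15.8%) and REV (12.6% and 13.0%) kept closer shares. These shares depend on the table, since by isoform sums without REV isoform 1 PHB held 51.1% in the control and 32.0% in the experiment condition. REV then ranked after PHB in the control with 23.6%, CNA went from 12.5% to 23.6%, and the ratio of the family sums was 2.07.

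The isoform table, which the authors made as a comparison of its own, holds 16 entries for the 5 genes, 10 of them tested. The deposited entries carry no transcript structure, so isoforms are numbered in table order. Of the 10 tested isoforms 3 were called higher and 1 lower, against 9.93% and 6.90% of all 32807 tested isoforms, 16.8% together. At a q under 0.05 the same 4 were called, against 13.2% higher and 9.91% lower (23.1% together). PHV and ATHB8 each had 1 isoform, and both rose. In the authors' deposited table the PHV isoform went from 3.16 to 10.6 FPKM (log2 1.75) and the ATHB8 isoform from 3.94 to 21.6 FPKM (log2 2.45), each with a Cuffdiff q of 0.000428.

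CNA had 6 isoforms, of which isoform 1 held 84.7% of the summed isoform FPKM in the control and 93.7% in the experiment condition. Isoform 1 of CNA rose from 5.85 to 25.3 FPKM in the authors' deposited table (log2 2.12, Cuffdiff q = 0.000428). The only other tested CNA isoform, isoform 3, had 0.352 and 1.13 FPKM with a Cuffdiff q of 0.385 in the authors' deposited table. Isoform 4 of CNA had 0.407 FPKM in the control and 0.000302 FPKM in the experiment condition in the authors' deposited table, and no test was made of it. Isoform 1 was thus the leading CNA isoform in both conditions and the one called.

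No PHB isoform passed the test. Isoform 1 had 23.3 and 31.2 FPKM (log2 0.42, Cuffdiff q = 0.384) and isoform 2 had 4.49 and 4.85 FPKM (log2 0.11, Cuffdiff q = 0.866) in the authors' deposited table. Isoform 1 held 82.6% of the summed PHB isoform level in the control and 85.1% in the experiment condition. Isoforms 3 and 4 were each near 0 in one condition and under 1 FPKM in the other, with no test.

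The isoform levels of PHB and REV were far above their gene levels. For PHB the summed isoforms came to 28.2 and 36.7 FPKM, 4.87 and 5.91 times the gene entry. PHB was set beside 9844 tested genes with a gene entry of their own, isoforms from 1 assembled locus and at least 1 FPKM in each condition. Among them the median ratio in the control was 1.40, the 90th percentile was 2.54 and 98.2% had a ratio under that of PHB. For REV, with isoform 1 left out as described next, the ratio was 5.80 in the control, above that of 98.9% of these genes. It was 2.86 in the experiment condition. REV itself is not in this set, since its gene entry shares a locus. For PHV, CNA and ATHB8 the ratio was 1.24 to 1.58 in the control and 1.34 to 1.83 in the experiment condition. By isoform sums, with REV isoform 1 left out, PHB was the most abundant member in both conditions, so its last place in the experiment condition holds only for the gene entries. The cause of the gaps was not tested.

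The REV isoforms did not move in one direction. They lie in a joined span of 34200 bases on chromosome 5 that also holds isoforms of 4 neighbouring genes. Isoform 1, the only REV isoform called, fell from 253 to 82.0 FPKM in the authors' deposited table (log2 -1.63, Cuffdiff q = 0.00434), but it belongs to an assembled locus separate from the other 3. The same span holds the abundant neighbour AT5G60670, named after its value was seen, whose gene entry went from 1354 to 283 FPKM in the authors' deposited table. The other REV isoforms had 0.142 and 12.4 FPKM (isoform 2), 4.32 FPKM and a listed 0 (isoform 3), and 8.55 and 6.15 FPKM (isoform 4) in the authors' deposited table, with Cuffdiff q-values of 0.354, 0.273 and 0.794. Summed over all 4 isoforms the REV log2 was -1.40, and 0.51 without isoform 1.

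**Figure D2:**
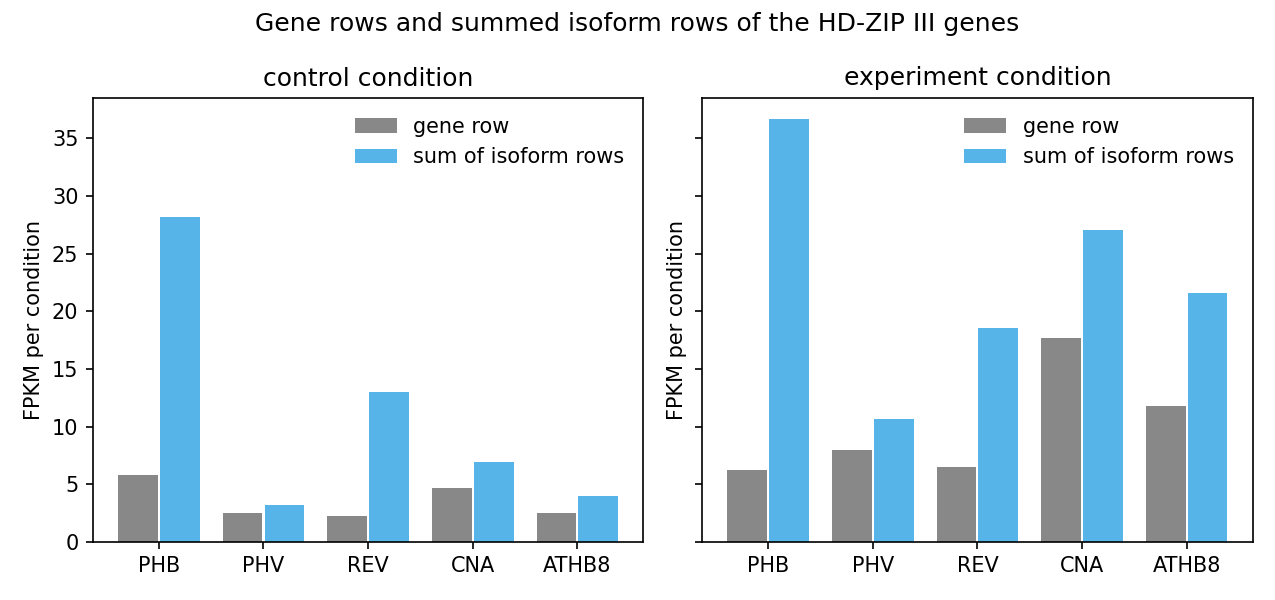
FPKM of the gene entry (grey) and summed FPKM of the isoform entries (blue) for each HD-ZIP III gene, with the control condition on the left and the experiment condition on the right, and 1 value per bar. REV isoform 1, from a separate locus, is left out of the sum, and the isoform sums of PHB (28.2 and 36.7 FPKM) and REV (13.0 and 18.6 FPKM) stand far above their gene values.

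Among the genes that act on or beside the HD-ZIP III proteins, calls went in both directions. Over 6 lists by role with 44 genes counted here, 38 had an entry of their own and 29 were tested. Of these 5 rose and 8 fell, beside 22.3% and 21.2% among all tested entries. The median log2 over all tested entries with a finite fold was -0.08.

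The gene entries of the microRNA loci differ in length, with 2003 bases for MIR166E and 90 to 136 bases for the other 7. MIR166E was the only one of the 9 loci with a gene test, and it rose from 2.40 to 6.05 FPKM in the authors' deposited table (log2 1.33, Cuffdiff q = 0.00999). The MIR166E entry spans chromosome 5 from 16773656 to 16775658 and contains the mature sequence at 16775524 to 16775544. In the isoform comparison its 1 tested isoform had a log2 of 0.31 and a Cuffdiff q of 0.640 in the authors' deposited table. MIR166A was listed at 0 in the control and had 25.4 FPKM in the experiment condition in the authors' deposited table, with no gene test. An isoform named MIR166A rose from 0.992 to 3.12 FPKM in the authors' deposited table (log2 1.65, Cuffdiff q = 0.000428). Its assembled locus spans chromosome 2 from 19175966 to 19180017. The other MIR166A isoform there had a listed 0 in the control and 3.04 FPKM in the experiment condition, with no test. MIR165A had a tested isoform with 1.44 and 3.19 FPKM and a Cuffdiff q of 0.0523 in the authors' deposited table.
MIR165A, MIR165B, MIR166C, MIR166D, MIR166F and MIR166G were listed at 0 in both conditions as gene entries. MIR166B had no gene entry under its own identifier. The gene entry of AT3G61898 spans the MIR166B mature sequence and fell from 78.8 to 24.9 FPKM in the authors' deposited table (log2 -1.66, Cuffdiff q = 0.00855), and it is named after its value was seen. The MIR166B isoform had 5.90 and 0.919 FPKM with a Cuffdiff q of 0.596 in the authors' deposited table. MIR166A was thus called higher in the isoform comparison, MIR166E in the gene comparison, and MIR166B in neither. A listed 0 for a gene entry does not show a silent locus, since MIR165A had isoform levels of 1.44 and 3.19 FPKM. All these values are of transcripts at the loci, and the mature microRNAs were not measured.

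Of 5 tested genes of microRNA production and action with an entry of their own, 3 fell and none rose. Among all tested entries 21.2% were called lower and 22.3% higher. AGO10, an Argonaute that in Arabidopsis binds miR166 and shields HD-ZIP III mRNAs, fell from 4.03 to 1.14 FPKM in the authors' deposited table (log2 -1.82, Cuffdiff q = 0.000917). HYL1, a double-stranded RNA-binding partner of the Dicer DCL1, fell from 10.4 to 2.98 FPKM in the authors' deposited table (log2 -1.80, Cuffdiff q = 0.000338). SE, a further processing factor, fell from 18.3 to 11.4 FPKM in the authors' deposited table (log2 -0.69, Cuffdiff q = 0.00896). The methyltransferase HEN1 (2.21 and 1.16 FPKM, q = 0.0603) and the exportin HST (2.00 and 2.13 FPKM, q = 0.831) missed the threshold in the authors' deposited table. The entries of AGO1 and DCL1 join or share a locus with another gene and were not counted. AGO1, the main slicer of microRNA targets, is named after its value was seen and had 18.2 and 18.6 FPKM in such a joined entry of the authors' deposited table, with a Cuffdiff q of 0.895. DCL1, named on the same ground, had 0.951 and 3.11 FPKM in the authors' deposited table (log2 1.71, Cuffdiff q = 0.0711).

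Of the little zipper inhibitors, which HD-ZIP III proteins activate in a feedback loop, 1 of 3 tested rose, beside 22.3% of all tested entries. ZPR4 went from 5.09 to 18.8 FPKM in the authors' deposited table (log2 1.88, Cuffdiff q = 0.000177). ZPR1, the most abundant, had 29.3 and 21.9 FPKM (q = 0.206) and ZPR3 had 6.18 and 6.46 FPKM (q = 0.932) in the authors' deposited table. ZPR2 had 0.516 FPKM and a listed 0, with no test. ZPR1 and ZPR3 had log2 values of -0.42 and 0.06. Their difference from ZPR4 was not tested, nor was any link of the ZPR levels to those of the HD-ZIP III genes. Of the KANADI genes, KAN2 (8.85 and 4.61 FPKM, q = 0.0232) and KAN4 (23.0 and 0.698 FPKM, q = 0.105) were not called in the authors' deposited table. KAN3 was listed at 0 in the control with 0.370 FPKM in the experiment condition and no test, and KAN1, whose entry shares a locus, had 9.28 and 0.265 FPKM with a Cuffdiff q of 0.241 in the authors' deposited table.

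Upstream regulators of the stele moved both ways, with 3 of 10 tested and counted higher and 1 lower. The shares among all tested entries were 22.3% higher and 21.2% lower. IAA12, the Aux/IAA repressor of the auxin response factor MONOPTEROS (ARF5), rose from 5.60 to 20.97 FPKM in the authors' deposited table (log2 1.91, Cuffdiff q = 0.000177). ARF5 itself, which activates ATHB8 in leaf veins, fell from 3.48 to 0.684 FPKM in the authors' deposited table (log2 -2.35, Cuffdiff q = 0.000338). ARF5 and ATHB8 therefore differed in direction, and any link between their levels was not tested. T5L1, a bHLH partner of LONESOME HIGHWAY (log2 1.55), and the cytokinin receptor WOL (log2 1.39, named after its value was seen) rose, each with a Cuffdiff q of 0.000177 in the authors' deposited table. LHW, the gene of LONESOME HIGHWAY, was not counted because its entry joins another gene, and that entry, named after its value was seen, fell from 19.0 to 9.12 FPKM in the authors' deposited table (log2 -1.06, Cuffdiff q = 0.000177). SHR, which with SCR drives miR165 and miR166 in the endodermis, had 19.6 and 16.3 FPKM (q = 0.326) and SCR had 19.8 and 13.7 FPKM (q = 0.0385) in the authors' deposited table, and neither passed.

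Genes reported as HD-ZIP III targets or effectors held 4 falls and no rise among 8 tested, beside 21.2% lower and 22.3% higher among all tested entries. The HD-ZIP II genes ATHB2 (34.6 to 4.28 FPKM, log2 -3.02, Cuffdiff q = 0.000177) and HAT3 (5.46 to 1.31 FPKM, log2 -2.06, Cuffdiff q = 0.00855) fell in the authors' deposited table. The auxin synthesis gene TAA1 (11.7 to 3.27 FPKM) and ACL5, a thermospermine synthase gene that acts against vessel differentiation (13.0 to 5.82 FPKM), also fell in the authors' deposited table. HAT2 (41.6 and 59.5 FPKM, q = 0.0373), ATHB4 (1.52 and 0.125 FPKM, q = 0.306), YUC5 (0.115 and 9.95 FPKM, q = 0.153) and BUD2 (2.27 and 2.36 FPKM, q = 0.931) were not called in the authors' deposited table. SAC51 had no gene entry under its own identifier. Much of the reported evidence for these targets is from shoots, and binding was not measured here.

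**Figure D3:**
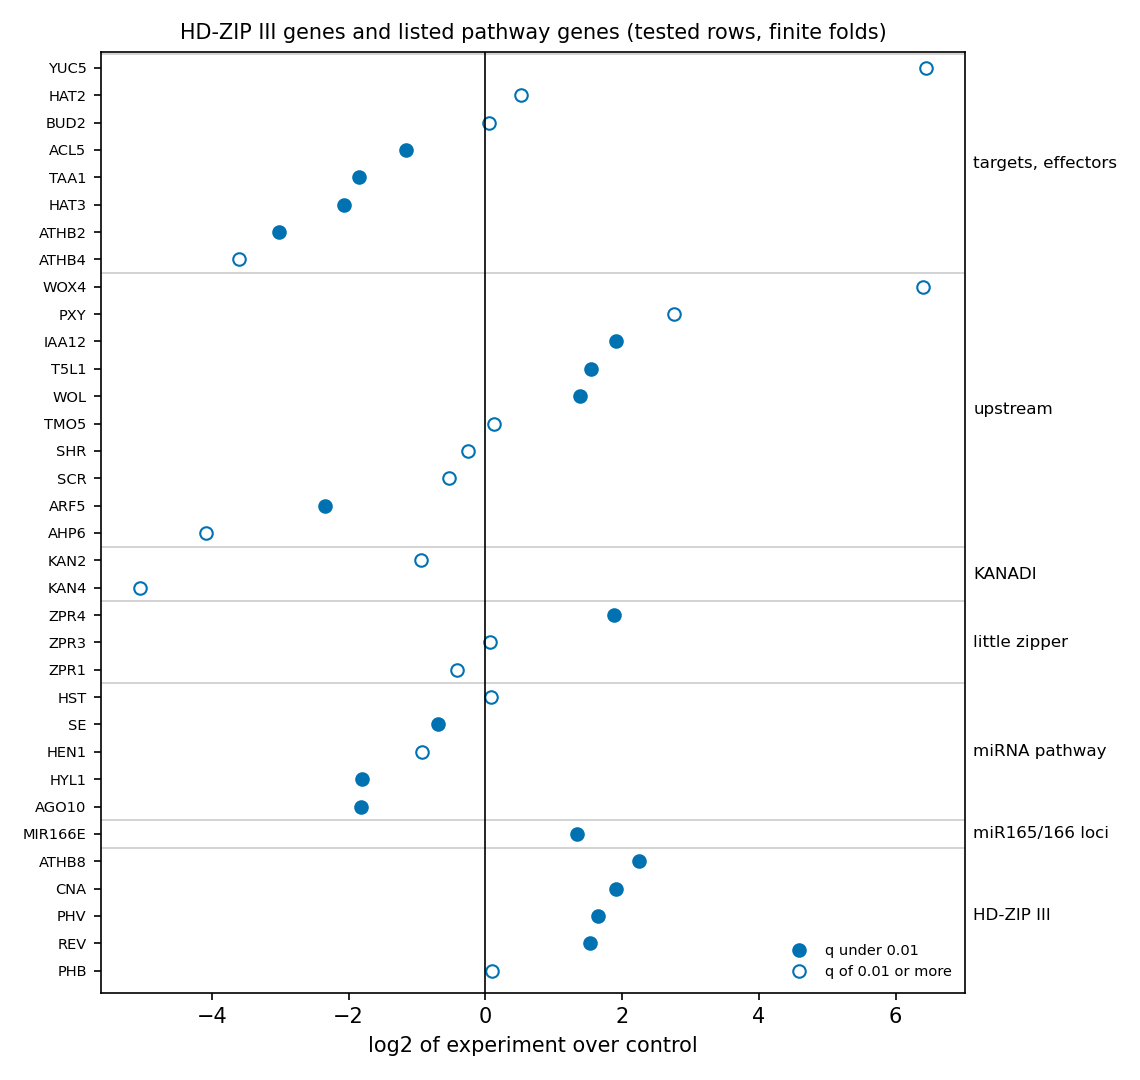
The log2 of experiment over control for the HD-ZIP III genes and the tested genes of the 6 role lists with an entry of their own and a finite fold, 1 point per gene, filled where the Cuffdiff q is under 0.01. The 4 called HD-ZIP III genes lie between 1.54 and 2.24, and the called genes of the microRNA pathway and target lists lie below 0.

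Within the HD-ZIP superfamily, class III was compared with the other classes by counts and medians only. In classes I, II and IV only genes with an entry of their own were counted. REV was kept in class III although its entry shares a locus. The rule for the other classes left out 2 tested genes, neither of them called. They were HAT1 (class II, 103 and 72.8 FPKM, log2 -0.50) and GL2 (class IV, 6.24 and 1.80 FPKM, log2 -1.79). The median log2 was 1.64 for class III (1.77 without REV), 1.00 for the 10 class I genes counted, and -4.11 for the 4 class IV genes counted. For class II its sign depends on genes listed at 0. The median was -0.77 over the 6 counted genes with a finite fold and 0.75 over all 8 counted, with HAT9 and HB18 ranked highest. Among all tested entries 22.3% were called higher and 21.2% lower. In class I 5 rose and 1 fell, led by HB16 (log2 2.53), HB6 (1.74) and HB5 (1.47) in the authors' deposited table, while HB3 fell (-1.05). The most abundant uncalled class I genes were HB20 (60.5 and 64.2 FPKM, q = 0.747) and HB52 (3.63 and 0.463 FPKM, q = 0.282) in the authors' deposited table. In class II, 2 of the 8 counted genes rose, HAT9 and HB18, both listed at 0 in the control in the authors' deposited table. Another 2 fell, ATHB2 and HAT3 as above. HAT22, named after its value was seen, went from 0.0997 to 11.2 FPKM without a call (log2 6.82, Cuffdiff q = 0.310). A call in this class therefore did not follow the size of the change alone.
Class IV proteins also carry a START domain but act mainly in the epidermis. ANL2 was the only class IV gene called, and it fell from 15.2 to 1.09 FPKM in the authors' deposited table (log2 -3.80, Cuffdiff q = 0.000177). HDG1, HDG7 and HDG12 had log2 values of -3.99, -5.73 and -4.22 without a call, with Cuffdiff q-values of 0.313, 0.306 and 0.237 in the authors' deposited table. Their experiment levels were near 0, at 0.0934, 0.0414 and 0.0904 FPKM. The size of these folds, and so the class IV median, is therefore uncertain. Of 14 class IV genes with an entry of their own, 10 were not tested. The difference between the classes was not tested.

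**Figure D4:**
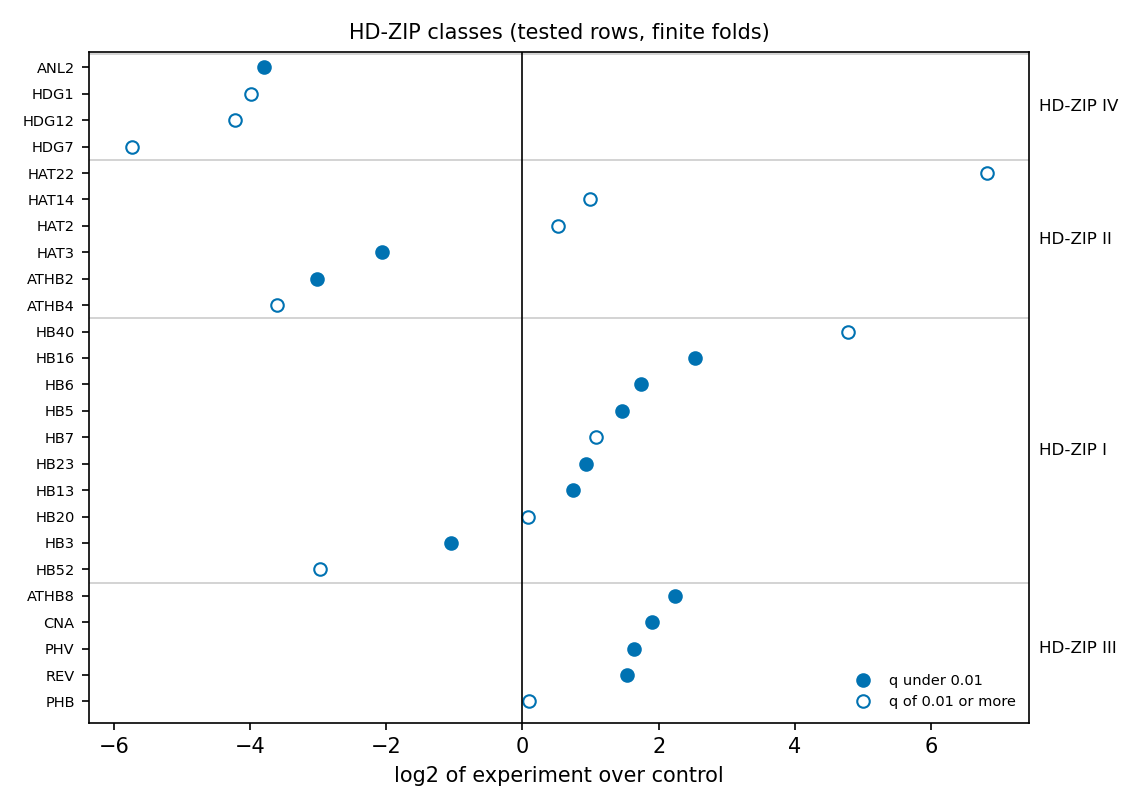
The log2 of experiment over control for tested genes of HD-ZIP classes I to IV, 1 point per gene, filled where the Cuffdiff q is under 0.01. Genes shown have a finite fold and an entry of their own, except REV, which was kept. Class III and most of class I lie to the right of 0, and the 4 class IV genes shown lie to the left, between -5.73 and -3.80. HAT1 (log2 -0.50) and GL2 (log2 -1.79), whose entries share a locus, are left out.

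Markers of several cell types moved between the conditions, and all HD-ZIP III values stand beside them. Fewer cells of a type and less RNA per cell cannot be told apart in whole sections. Counts and sums here cover genes with an entry of their own. Among all tested entries 22.3% were called higher and 21.2% lower. Of 8 tested xylem genes with such an entry 5 rose and none fell. Those that rose include XCP2, a vessel protease (log2 4.91), and VND4, a vessel regulator (log2 3.57), in the authors' deposited table. VND1, VND2, VND5, CESA4, CESA7 and CESA8 were tested but not counted. CESA4 (log2 3.29) and CESA7 (log2 4.59) were called higher there, and none of the uncounted genes was called lower. Among the 8 counted, the uncalled xylem genes of highest level were VND3 (6.09 and 9.16 FPKM, q = 0.199) and MYB83 (0.477 and 7.54 FPKM, q = 0.0175) in the authors' deposited table. Of the procambium and phloem markers counted here, 4 of 4 tested rose, namely WOL, APL, SUC2 and CALS7. WOL is also counted among the upstream regulators. The list mixes both tissues, so its count does not speak for procambium alone. Summed levels went from 19.8 to 415 FPKM for xylem, from 12.5 to 61.3 FPKM for procambium and phloem, and from 4.97 to 473 FPKM for root hair markers, of which 4 of 4 rose. Root cap markers fell in 4 of 5 tested, from a sum of 85.2 to 1.39 FPKM, with a listed 0 in the experiment condition for FEZ, BRN1 and BRN2. The uncalled SMB had 15.4 and 0.0679 FPKM with a Cuffdiff q of 0.310 in the authors' deposited table. Photosynthesis genes rose in 3 of 5 tested and counted, from a sum of 6.20 to 67.3 FPKM. LHCB3 shares a locus and was not counted, and it too was called higher (log2 3.95). The part of these shifts in the HD-ZIP III values was not tested.

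The called genes with symbols whose pair of levels lay nearest to each member were found by Euclidean distance in log2(FPKM + 1) over the 2 conditions, among 2941 genes. For ATHB8 they were IAA18 (distance 0.020), TRM26 (0.035) and TPS9 (0.079), and for CNA UBC5 (0.065), TBL28 (0.071) and ACA8 (0.071). For PHV they were WIT2 (0.094), SPL15 (0.097) and TRM3 (0.118), and for REV ACD1-LIKE (0.033), MC5 (0.042) and CDF3 (0.067). IAA18 stood at 2.54 and 11.8 FPKM in the authors' deposited table, beside 2.49 and 11.8 FPKM for ATHB8. For PHB the nearest were PRAF1 (0.416), SUO (0.422) and GI (0.429), but PHB was itself not called, so a search among called genes fixes larger distances for it. A likeness over 2 values per gene says little beyond level and fold.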

How the data were processed

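Total RNA from 6 libraries (3 of zone I, 3 of zone II, grouped by sample title) was copied with a template-switching kit, amplified, tagmented and sequenced as paired ends, per the labels' protocols. TopHat, Cufflinks, Cuffdiff and the TAIR10 build are named in the submitters' processing notes, with no version or setting. The authors deposited 1 value per condition, its log2 ratio, a test statistic score, a p-value and a q-value for each entry, per the file headers. The score was not used. Depth per library, and so precision, is unknown.

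Members and lists were chosen with earlier results of these data known. Calls use the deposited q under 0.01, which was checked to equal a Benjamini-Hochberg adjustment over tested entries (largest relative difference 4.9e-06). List members were counted where 1 entry names that gene alone and shares its locus with no other, except REV, which was kept. 1 gene of the upstream regulator and procambium lists is not reported here and was taken out of all counts and sums after results were known, so these do not cover the whole lists. Named genes were all members and isoforms, all genes of the short regulator and target lists, and for other lists up to 4 called by fold, 2 at 0 and 2 uncalled by level. Some of these are given only as counts. File coordinates, counted from 0, are written from 1. Gene positions were compared with RefSeq TAIR10.1, where 27729 of 27730 single-gene entries overlapped the gene of the same name. Coding sequences were searched and aligned with Biopython 1.88, in Python 3.11.15, with searches tested on simulated data. Alternatives were other thresholds, adjustments, pseudocounts, scaling and isoform sums.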

Additional observations from a re-analysis of the deposited data

How the results depend on the processing

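The count of HD-ZIP III genes called higher stayed at 4 at a q under 0.05 and when p was adjusted over loci of 1 gene, and was 3 at a q under 0.001, where REV no longer passed. A minimum of 1 FPKM in either condition removed no tested entry. The median log2 of the 5 genes was 1.64 as deposited, 1.34 with a pseudocount of 1, 1.61 with 0.1, 1.75 from isoform sums with or without the separate REV locus, 1.72 with the median of all tested loci set to 0 and 1.77 without REV. The ratio of family sums went from 2.82 to 2.07 with isoform FPKM summed without that locus. The alternatives without REV or the separate locus were chosen after seeing the data. REV reversed to -1.40 with all isoform FPKM summed, and the cause was not tested. With isoforms of at least 1 FPKM only, the leading isoform held 83.8% and 86.5% of PHB and 94.3% and 95.7% of CNA in the control and experiment conditions, because fewer isoforms were summed. Pathway calls went from 5 higher and 8 lower to 7 and 10 at a q under 0.05. No paired analysis was possible because the files hold no value per library, and for the same reason no replicate was left out.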
